A study of Mus musculus with 47 samples.

Results

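Respiratory complex I (NADH:ubiquinone oxidoreductase) is described here through the genes whose annotated symbol starts with Nduf. There were 42 such genes among the 17097 genes on the array, and each was represented by 1 probe set, that of highest mean level across the 47 arrays. The rule covers the nuclear subunits of the complex, 7 assembly factors, 2 genes that carry the name but not a place in complex I (Ndufa4 and Ndufa4l2), and a transcribed pseudogene, Ndufs5-ps. Of the 42 genes, 40 passed the filter on low values (a mean of at least 5.80 on the log2 scale) and were tested. The assembly factors Ndufaf1 (mean 4.75) and Ndufaf5 (mean 5.35) lay below it. The genes Ndufb6, Ndufa13, Ndufaf7, Ndufb1 and Ndufs5 itself were not analysed here, and no probe set with a single symbol carried that of a subunit encoded by mitochondrial DNA.

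Expression was measured on 1 array per mouse in satellite cells, which are the stem cells of muscle, from female wild type C57B6/J mice. The 23 mice on the high-fat diet and the 24 mice on the control diet began their diets at 8 weeks of age, ate without restriction for 7 weeks and were 15 weeks old at collection. Both diets were sampled at zeitgeber times ZT0, ZT4, ZT8, ZT12, ZT16 and ZT20, with 4 mice in each of the 12 groups except high-fat ZT16, which held 3. All mice of 1 time, whatever their diet, were collected on a single day, so diet differences lie within days, whereas time of day and collection day cannot be told apart within a diet.

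Complex I takes electrons from NADH and passes them to ubiquinone while pumping protons out of the mitochondrial matrix. Its matrix arm holds an N module, which oxidises NADH through a flavin and iron-sulfur clusters, and a Q module, which hands the electrons to ubiquinone. The membrane arm holds the proton pumps, which are encoded by mitochondrial DNA and surrounded by nuclear accessory subunits. Quiescent satellite cells are known for a low oxidative metabolism that increases on activation.

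Promoter sequence is shown for 5 genes on which the results turn. Ndufa9, Ndufs7 and Ndufa5 had the smallest p-values of the average diet difference, Ndufaf4 the largest difference at a single time, and Ndufs3 the smallest p-value for a diet difference that changes over the day. Each stretch covers the 150 bases before an annotated start, read 5′ to 3′ on the gene's strand, from RefSeq (GRCm38.p6). Capitals mark the core of the NRF1 site (TGCGCA) or the ETS and GABP site (CCGGAAG), found by exact match on either strand. NRF1 and GABP are known as activators of nuclear genes of the respiratory chain.
Ndufa9, chr6:126849145-126849294, minus strand: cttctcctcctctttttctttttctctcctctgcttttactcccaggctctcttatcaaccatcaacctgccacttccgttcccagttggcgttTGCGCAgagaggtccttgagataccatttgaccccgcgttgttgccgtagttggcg
Ndufa5, chr6:24527691-24527840, minus strand: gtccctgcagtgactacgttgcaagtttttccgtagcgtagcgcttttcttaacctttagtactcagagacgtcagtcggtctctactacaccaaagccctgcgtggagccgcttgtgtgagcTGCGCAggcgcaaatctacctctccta
Ndufaf4, chr4:24897933-24898082, plus strand: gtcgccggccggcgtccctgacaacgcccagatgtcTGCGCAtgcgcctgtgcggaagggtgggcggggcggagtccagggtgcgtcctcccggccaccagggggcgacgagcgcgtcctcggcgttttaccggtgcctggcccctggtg
Ndufs3, chr2:90904722-90904871, minus strand: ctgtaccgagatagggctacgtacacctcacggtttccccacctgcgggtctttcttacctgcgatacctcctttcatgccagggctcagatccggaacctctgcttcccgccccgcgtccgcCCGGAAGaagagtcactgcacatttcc
Ndufs7, chr10:80249299-80249448, plus strand: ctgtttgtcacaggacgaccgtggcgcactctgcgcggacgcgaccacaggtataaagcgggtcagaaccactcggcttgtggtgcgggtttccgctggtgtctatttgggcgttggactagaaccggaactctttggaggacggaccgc

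The NRF1 core began 56 bases before the start in Ndufa9, 27 bases before it in the Ndufa5 window shown (1 of 2 annotated starts) and 114 bases before it in Ndufaf4. The ETS and GABP site began 27 bases before the start of Ndufs3. None of the searched motifs lay in the stretch shown for Ndufs7. Promoter windows of 300 bases (250 before to 50 after the start) were found for 36 of the 42 genes, in 38 windows. TGCGCA was present in 10 of the 38 windows (26.3%), against 7.76% of all 32851 windows and 9.74% of those of protein-coding genes. The YY1 core AAGATGG was in 8 (21.1%, against 6.34% of all windows and 6.24% of protein-coding ones). CCGGAAG was in 5 (13.2%, against 8.86% of all and 11.6% of protein-coding ones). The estrogen-related receptor site AAGGTCA was in 2 (5.26%, against 4.72% and 4.08%) and the E-box CACGTG in 3 (7.89%, against 7.15% and 7.84%). All 5 strings were searched on both strands over the whole windows. CCGGAAG can run into AAGATGG, but 0 pairs of different motifs overlapped in the 38 windows. A match is a description of the letters only.

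Averaged over the 6 times, the Nduf genes that changed were all lower on the high-fat diet. Of the 40 tested genes, 14 fell and 0 rose at an adjusted p under 0.05 (limma, Benjamini-Hochberg over 10258 genes), where 6.8% of all genes fell and 4.7% rose. At an unadjusted p under 0.05, 22 were lower and 0 higher, where 15.8% of all genes were lower and 10.9% higher, and 34 of 40 had a negative difference, against 55.1% of all genes. Of the 32 nuclear subunits of complex I among the 40 genes, 12 fell at an adjusted p under 0.05. The median log2 difference of the 40 genes was -0.095, against -0.011 over all genes tested. The differences were small, with high-fat over control folds between 0.775 and 0.927 among the 14. All 14 were lower on the high-fat diet at 5 or more of the 6 times, and 5 of them (Ndufa4, Ndufb5, Ndufb7, Ndufb8 and Ndufb10) at each time. Levels and differences are on the log2 scale throughout, and ± gives limma's SE except where SD is written. In such bulk samples, fewer cells of a type and less RNA per cell cannot be told apart.

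**Figure D1:**
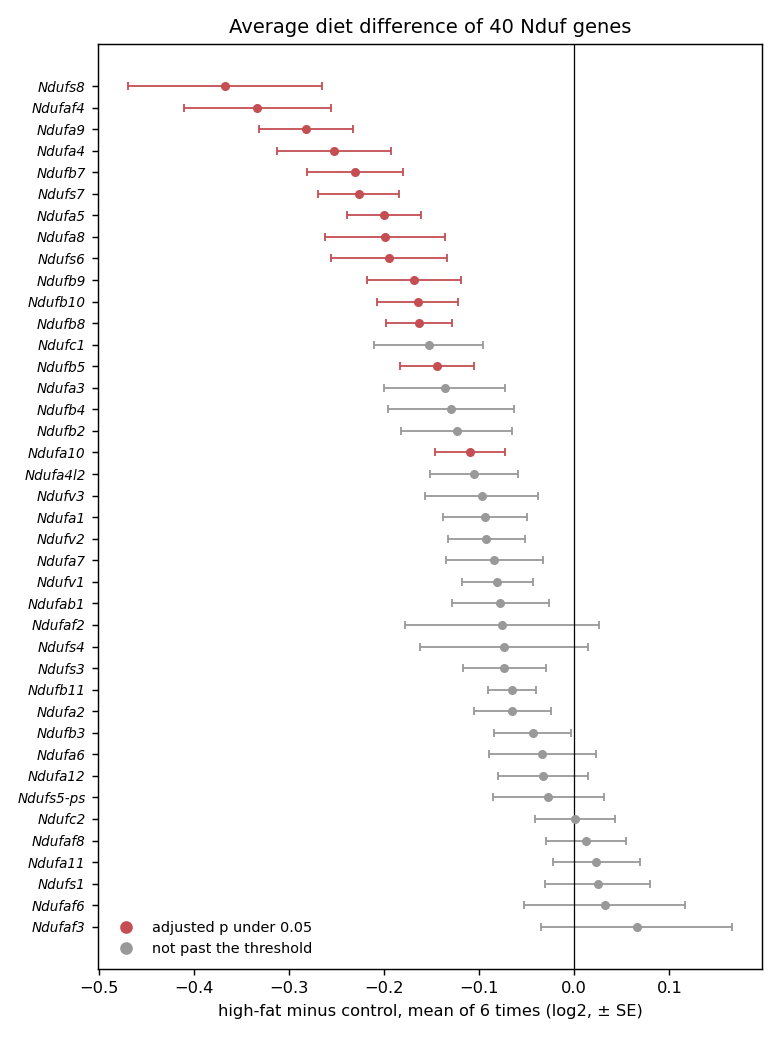
The horizontal axis gives the high-fat minus control difference averaged over the 6 times (log2, bars are SE from limma) for each of the 40 tested Nduf genes, with red points past an adjusted p of 0.05. All 14 red points lie left of 0, from -0.37 for Ndufs8 to -0.11 for Ndufa10.

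The Q module, where electrons pass to ubiquinone, held 4 tested genes, of which 3 fell (Ndufs7, Ndufa5 and Ndufs8). Ndufs7, the core subunit that carries the last iron-sulfur cluster before ubiquinone, ranged from 9.59 to 10.37 with a median of 9.91 in the 23 high-fat mice, against 9.85 to 10.53 with a median of 10.13 in the 24 control mice. Its average difference was -0.23 ± 0.04 (adjusted p = 0.000498). Ndufa5, an accessory subunit of this module, ranged from 9.97 to 10.78 (median 10.39) in high-fat mice, against 10.32 to 11.00 (median 10.59) in control mice. The difference was -0.20 ± 0.04 (adjusted p = 0.000702). Both ranges overlapped between diets, and in each gene 9 high-fat mice lay below the lowest control mouse. Ndufs8, a core subunit with iron-sulfur clusters, differed most but varied most, with a median of 7.51 (6.75 to 8.46) in high-fat mice, against 7.81 (7.19 to 8.67) in control mice (-0.37 ± 0.10, adjusted p = 0.0147). The fourth member, the core subunit Ndufs3, had an average difference of -0.07 ± 0.04 (adjusted p = 0.282) with differences of both signs over the day, and without the ZT16 mice the average was 0.0028.

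In the N module 1 of 10 tested genes fell, and the median difference was -0.077. That gene was Ndufs6, an accessory subunit (-0.19 ± 0.06, adjusted p = 0.0301). The core subunits of this module did not pass. Ndufv1, which binds NADH and the flavin, had a median of 10.57 (10.16 to 10.91) in high-fat mice, against 10.65 (10.33 to 10.91) in control mice (-0.08 ± 0.04, adjusted p = 0.156). Ndufv2, its iron-sulfur partner, differed by -0.09 ± 0.04 (adjusted p = 0.132). Ndufs1, the large iron-sulfur subunit, differed by 0.02 ± 0.06 (adjusted p = 0.823), and its sign turned without ZT8 (-0.03) or without ZT12 (-0.02). That the N and Q modules differ in their response was not tested.

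Of the 18 tested genes of the membrane arm and acyl carrier, 8 fell (median -0.133). Ndufa9, an accessory subunit at the junction of matrix and membrane arm, had the smallest p-value of all Nduf genes. Its values ran from 7.68 to 8.87 (median 8.49) in high-fat mice, against 8.50 to 9.09 (median 8.72) in control mice, with a fold of 0.822 (adjusted p = 0.000226). Ndufb8, in the distal part of the membrane arm, had a median of 9.69 (9.36 to 10.02) in high-fat mice, against 9.84 (9.63 to 10.15) in control mice (-0.16 ± 0.03, adjusted p = 0.00169). Ndufb7, also of the distal part, had a median of 8.60 (8.27 to 9.08) in high-fat mice, against 8.90 (8.38 to 9.40) in control mice (-0.23 ± 0.05, adjusted p = 0.0022). The other 5 were Ndufb10, Ndufb5, Ndufb9, Ndufa8 and Ndufa10, with differences between -0.20 and -0.11 and adjusted p between 0.00923 and 0.0474. Ndufc2, of the proximal membrane arm, had close means on both diets, with a difference of 0.00 ± 0.04 (adjusted p = 0.994).

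Among the 5 tested assembly factors 1 fell. Ndufaf4, which helps to build the Q module, had a median of 7.27 (6.30 to 8.20) in high-fat mice, against 7.54 (6.63 to 8.60) in control mice, with a difference of -0.33 ± 0.08 (adjusted p = 0.00366). Its known partner Ndufaf3 had the largest positive difference of the 40 genes, 0.07 ± 0.10 (adjusted p = 0.73), followed by Ndufaf6 at 0.03 ± 0.08 (adjusted p = 0.854). Neither passed the test. Outside complex I, Ndufa4, now assigned to complex IV, fell by 0.25 ± 0.06 on the log2 scale (adjusted p = 0.00451), while its relative Ndufa4l2 differed by -0.11 ± 0.05 (adjusted p = 0.132).

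Several of these genes had further probe sets, used here as a check chosen after seeing the data. A second probe set of Ndufa5 (-0.16 ± 0.03, adjusted p = 0.000496) and one of Ndufb7 (-0.21, adjusted p = 0.00732) also fell. That of Ndufs7 had -0.14 with an adjusted p of 0.0545. Probe sets below the filter on low values had the other sign for Ndufaf4 (0.07 ± 0.05, mean 4.77) and Ndufb8 (0.06 ± 0.06, mean 5.74). The count of 14 was 8 without the ZT0 mice, 7 of them among the 14, and 7 without the ZT16 mice, all among the 14. Over all genes 1180 passed, with 730 without the ZT0 mice and 584 without the ZT16 mice. Leaving out each mouse in turn gave 12 to 15, and the call of Ndufa10 was lost in 31 of these 47 fits, that of Ndufa8 in 7 and that of Ndufs6 in 1.

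Most of the calls at single times fell at ZT16, and so did those over all genes. Of all genes 1360 passed at ZT16, against 32 to 365 at each other time. At ZT16, 11 of 40 genes fell and 0 rose, where 7.13% of all genes fell and 6.13% rose. The median difference there was -0.22 over the 40 genes, against -0.02 over all genes. On the high-fat diet 36 of the 40 were lower, against 53.4% of all genes. In 14 of the 40 genes each of the 3 high-fat mice lay below each control mouse, where 15.8% of all genes did so. The reverse held in 0 genes, where 13.3% of all genes did so.

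**Figure D2:**
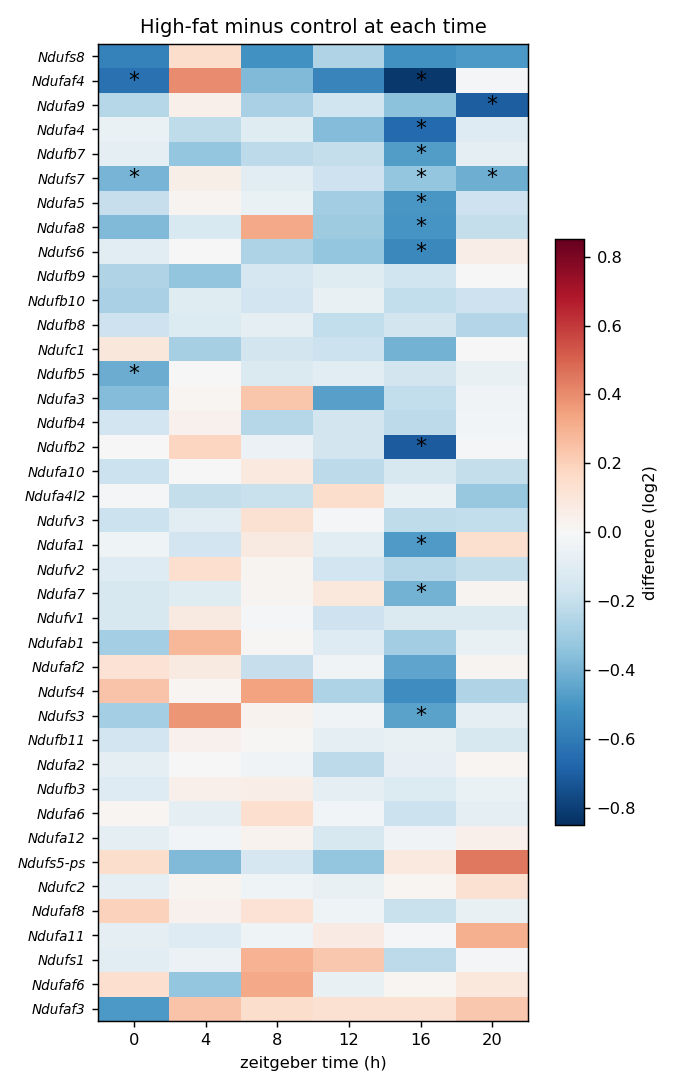
Rows are the 40 tested Nduf genes in the order of their average difference, columns the 6 zeitgeber times, and colour the high-fat minus control difference (log2, blue lower on the high-fat diet), with an asterisk for an adjusted p under 0.05. The asterisks number 3 at ZT0, 11 at ZT16 and 2 at ZT20, and all stand on blue cells.

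Ndufa5 had values of 10.39, 10.39 and 10.28 in the 3 high-fat mice at ZT16, against 10.70, 11.00, 10.82 and 10.89 in the 4 control mice (-0.50 ± 0.10, adjusted p = 0.000901). The groups did not overlap. Ndufb2, an accessory subunit of the membrane arm, had 8.12, 7.88 and 8.02 in high-fat mice, against 8.56, 8.76, 8.70 and 8.83 in control mice (-0.70 ± 0.15, adjusted p = 0.00167). Its average over the 6 times did not pass (-0.12 ± 0.06, adjusted p = 0.166), and at ZT0, ZT8 and ZT20 its differences lay between -0.05 and 0.00. Ndufa4 had 8.39, 8.91 and 8.69 in high-fat mice, against 9.04, 9.55, 9.50 and 9.21 in control mice (-0.66 ± 0.16, adjusted p = 0.00385).

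The widest gap at ZT16 was that of the assembly factor Ndufaf4, with 6.60, 6.30 and 6.50 in high-fat mice, against 7.23, 7.27, 7.25 and 7.39 in control mice (-0.82 ± 0.20, adjusted p = 0.00519). Ndufs3 had 8.31, 8.38 and 7.96 in high-fat mice, against 8.68, 8.59, 8.76 and 8.64 in control mice (-0.45 ± 0.11, adjusted p = 0.00551). Ndufa1, a small membrane subunit needed for assembly, had 9.23, 9.59 and 9.42 in high-fat mice, against 9.83, 10.18, 9.71 and 9.86 in control mice (-0.48 ± 0.12, adjusted p = 0.00402). In each of these 3 genes the high-fat mice lay below the control mice without overlap. Ndufb7, Ndufs6, Ndufa8, Ndufa7 and Ndufs7 completed the 11, with differences between -0.55 and -0.33 and adjusted p between 0.0123 and 0.0434. Ndufs6 had 8.01, 8.29 and 8.32 in high-fat mice, against 8.52, 8.94, 8.70 and 8.86 in control mice. Ndufa8 overlapped between the diets, with 9.04, 8.71 and 9.11 in high-fat mice, against 9.01, 9.53, 9.37 and 9.93 in control mice.

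By role, the genes that fell at ZT16 were 3 of 4 in the Q module, 2 of 10 in the N module, 4 of 18 in the membrane arm, 1 of 5 assembly factors and Ndufa4. Second probe sets of Ndufa5 (-0.37), Ndufb2 (-0.60) and Ndufb7 (-0.51) fell as well, whereas the 4 other probe sets of Ndufa7 ranged from -0.42 to 0.03 and did not pass. Ndufab1, the mitochondrial acyl carrier protein, did not pass by the probe set used, although 2 of its 3 others fell (-0.57 and -0.64). Marker lists of other cell types moved at ZT16 as well. The mean of the fibro-adipogenic markers ranged from 8.065 to 8.23 in high-fat mice, against 7.77 to 8.037 in control mice, that of the endothelial markers from 6.257 to 6.44 in high-fat mice, against 6.04 to 6.129 in control mice, and that of the myofibre markers from 6.338 to 6.442 in high-fat mice, against 6.186 to 6.297 in control mice. The means of these 3 lists were higher in high-fat mice without overlap. Of all single genes 13.3% were, but a mean of several genes varies otherwise than a single gene. No such share was computed for means of lists. These means also hold markers below the filter. Of the tested markers, 3 of 4 fibro-adipogenic, 3 of 4 endothelial and 5 of 9 myofibre markers had a positive difference. In that order 0, 0 and 1 of them passed. The mean of 5 pericyte and smooth muscle markers overlapped, with 8.394 to 8.962 in high-fat mice, against 8.495 to 9.89 in control mice. The part of these markers in the complex I differences was not tested. The count of 11 rested in part on single mice of this small group. It was 5 without high-fat replicate 1, 7 without high-fat replicate 3, 7 without control replicate 2 and 6 without control replicate 4.

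At the other times few or no genes passed. At ZT0, 3 of 40 fell, where 2.23% of all genes fell, 1.33% rose and 3.56% did either. By sign alone 32 of 40 were lower there, against 57% of all genes. Ndufb5, a membrane arm subunit, had 8.68, 8.83, 8.60 and 8.80 in high-fat mice, against 8.94, 9.39, 9.10 and 9.16 in control mice (-0.42 ± 0.09, adjusted p = 0.00937). Ndufs7 had 9.74, 9.61, 9.76 and 9.59 in high-fat mice, against 9.98, 10.26, 10.20 and 9.85 in control mice (-0.40 ± 0.10, adjusted p = 0.0251). Ndufaf4 had 7.15, 7.36, 7.65 and 7.05 in high-fat mice, against 7.75, 8.08, 7.95 and 7.95 in control mice (-0.63 ± 0.19, adjusted p = 0.0466). The high-fat mice lay below all control mice in each of the 3, and did so in 7 of the 40 genes (6.16% of all genes). The reverse held in 0 of the 40 (3.83% of all genes). Second probe sets of Ndufb5 (-0.30, adjusted p = 0.172) and Ndufs7 (-0.32, adjusted p = 0.123) did not pass. The mean of the immune markers was lower at ZT0 without overlap, with 5.19 to 5.387 in high-fat mice, against 5.429 to 5.491 in control mice. The fibro-adipogenic markers averaged 8.399 ± 0.211 in high-fat mice and 8.065 ± 0.131 in control mice, and the 3′ minus 5′ control signal of Gapdh, a sign of RNA integrity, -0.16 ± 0.041 in high-fat mice and -0.071 ± 0.062 in control mice (SD, n = 4 each). Their part was not tested. The count of 3 became 0 without control replicate 2 and 1 without control replicate 3, high-fat replicate 2 or high-fat replicate 4.

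At ZT20, 2 of 40 fell, where 0.517% of all genes fell, 0.302% rose and 0.819% did either. Ndufa9 had 8.22, 8.02, 7.68 and 8.10 in high-fat mice, against 8.75, 8.55, 8.57 and 8.93 in control mice (-0.70 ± 0.12, adjusted p = 0.0016). Ndufs7 had 9.71, 9.95, 9.62 and 9.59 in high-fat mice, against 10.03, 10.06, 10.42 and 10.04 in control mice (-0.42 ± 0.10, adjusted p = 0.0407). Both genes were lower in each high-fat mouse than in any control mouse, as were 3 of the 40 in all (4.04% of all genes). A second probe set of Ndufs7 had -0.11 (adjusted p = 0.731). The Ndufs5-ps probe set stood opposite, with 8.84, 8.80, 8.79 and 8.67 in high-fat mice, against 8.20, 8.47, 8.42 and 8.22 in control mice (0.45 ± 0.14, adjusted p = 0.114). It was the 1 member whose high-fat mice all lay above the control mice at ZT20 (2.29% of all genes). The mean of the pericyte and smooth muscle markers was 8.74 ± 0.546 in high-fat mice and 9.70 ± 0.07 in control mice at ZT20 (SD, n = 4 each), and 2 of the 5 fell. The mean of the myofibre markers was lower too, with 6.156 to 6.348 in high-fat mice, against 6.383 to 6.617 in control mice. The part of both lists was not tested. Without control replicate 1, 2 or 3, or high-fat replicate 3 or 4, 1 gene passed in place of 2.

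At ZT4, ZT8 and ZT12 the limma test called 0 Nduf genes. At ZT4, 0.107% of all genes fell, 0.205% rose and 0.312% did either. Among the 40 genes, 3 (7.5%) were higher and 3 lower at an unadjusted p under 0.05, near the 7.16% and 5.14% of all genes. Ndufs3 had the smallest p there, with 8.90, 8.72, 8.91 and 8.80 in high-fat mice, against 8.39, 8.47, 8.61 and 8.36 in control mice. The difference of 0.37 ± 0.10 had an adjusted p of 0.0881. The groups did not overlap, and Ndufs3 was the 1 member with its high-fat mice above the control mice (3.1% of all genes), whereas 2 members had them below (2.28%). Next in p came Ndufb9 (-0.34 ± 0.12), Ndufb7 (-0.33 ± 0.12) and Ndufs5-ps (-0.38 ± 0.14), with adjusted p between 0.197 and 0.228. The largest positive difference at ZT4 was that of Ndufaf4, with means of 7.57 in high-fat mice and 7.17 in control mice, and it did not pass.

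At ZT8, 1.02% of all genes fell, 0.76% rose and 1.78% did either. Of the 40 genes, 2 (5%) were higher and 2 lower there at an unadjusted p under 0.05, where 6.97% of all genes were higher and 10.3% lower, and in 0 of the 40 did the groups not overlap (5.87% of all genes with the high-fat mice below, 3.96% above). Ndufs1 differed by 0.30 ± 0.13 and Ndufa8, an accessory subunit of the proximal membrane arm, by 0.32 ± 0.15, against -0.28 ± 0.12 for Ndufa9 (adjusted p between 0.211 and 0.268). At ZT12, 0.39% of all genes fell, 0.468% rose and 0.858% did either. Here 9 of the 40 genes (22.5%) were lower at an unadjusted p under 0.05, where 6.75% of all genes were, and 35 of 40 had a negative difference, against 49.7% of all genes. Ndufaf4 (-0.56 ± 0.19), Ndufa3 (-0.46 ± 0.15) and Ndufa5 (-0.30 ± 0.09) led there, with adjusted p between 0.117 and 0.138. In 3 of the 40 genes the high-fat mice all lay below the control mice (3.28% of all genes) and in 0 above (4.19%). At ZT12 the mean of the fibro-adipogenic markers was higher, with 8.384 to 8.709 in high-fat mice, against 8.064 to 8.227 in control mice. So was that of the Schwann cell markers, with 7.356 to 7.862 in high-fat mice, against 7.003 to 7.154 in control mice. Of the tested markers of these lists, 3 of 4 and 4 of 4 had a positive difference, and 0 and 2 passed. Their part was not tested. At ZT12, 1 gene passed without high-fat replicate 4.

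Whether the diet difference itself changed over the 6 times was tested by the interaction. It passed for 5 of 40 genes, near the 12.4% of all genes, so the share says nothing particular about complex I. The genes were Ndufs3 (adjusted p = 0.00465), Ndufaf4 (0.0125), Ndufs5-ps (0.0202), Ndufa9 (0.0369) and Ndufb2 (0.0388). Ndufs3 averaged 8.10, 8.83, 8.65, 8.36, 8.21 and 8.12 from ZT0 to ZT20 in high-fat mice, against 8.38, 8.46, 8.61, 8.39, 8.67 and 8.19 in control mice. Its mean was thus higher on the high-fat diet at ZT4 and lower at ZT0 and ZT16. Ndufaf4 averaged 7.30, 7.57, 7.83, 6.84, 6.47 and 7.24 in high-fat mice, against 7.93, 7.17, 8.20, 7.41, 7.29 and 7.25 in control mice, with its narrowest difference at ZT20. Its high-fat mean was the higher at ZT4 alone.

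Ndufa9 averaged 8.41, 8.64, 8.55, 8.73, 8.29 and 8.00 from ZT0 to ZT20 in high-fat mice, against 8.65, 8.60, 8.83, 8.90, 8.64 and 8.70 in control mice. The diets were closest at ZT4 and furthest apart at ZT20. Ndufs5-ps averaged 8.52, 8.21, 8.46, 8.20, 8.47 and 8.78 in high-fat mice, against 8.37, 8.58, 8.61, 8.53, 8.38 and 8.33 in control mice, and so was the lower on the high-fat diet from ZT4 to ZT12 and the higher at the other times. The interaction count of 5 was 3 without high-fat ZT4 replicate 4, 8 without high-fat ZT12 replicate 4, and 1 without the ZT4 mice or without the ZT16 mice. Over all genes 1276 passed, with 964 without the ZT4 mice and 271 without the ZT16 mice.

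The remaining core subunits are given by group mean. Ndufs8 averaged 7.49, 7.88, 7.67, 7.75, 7.04 and 7.24 from ZT0 to ZT20 in high-fat mice, against 8.07, 7.74, 8.19, 8.00, 7.56 and 7.72 in control mice, and was the lower on the high-fat diet at all times but ZT4. Ndufv1 averaged 10.41, 10.66, 10.73, 10.45, 10.63 and 10.51 in high-fat mice, against 10.54, 10.58, 10.74, 10.62, 10.76 and 10.63 in control mice. Ndufv2 averaged 9.70, 9.99, 10.04, 9.85, 9.62 and 9.64 in high-fat mice, against 9.82, 9.85, 10.02, 10.01, 9.86 and 9.84 in control mice. Both N module genes were closest between diets at ZT8. Ndufs1 averaged 7.80, 8.41, 8.18, 8.20, 8.03 and 8.08 in high-fat mice, against 7.90, 8.46, 7.88, 7.97, 8.25 and 8.10 in control mice, with the sign of its difference positive at ZT8 and ZT12 and negative at the other times.

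The same is given for 4 accessory subunits. Ndufa5 averaged 10.27, 10.66, 10.50, 10.17, 10.36 and 10.40 from ZT0 to ZT20 in high-fat mice, against 10.47, 10.63, 10.56, 10.47, 10.85 and 10.58 in control mice. Its highest control mean was at ZT16, where the difference was -0.50. Ndufb7 averaged 8.63, 8.73, 8.75, 8.53, 8.70 and 8.49 in high-fat mice, against 8.71, 9.05, 8.98, 8.73, 9.17 and 8.57 in control mice. Ndufb8 averaged 9.57, 9.74, 9.90, 9.72, 9.63 and 9.51 in high-fat mice, against 9.74, 9.86, 9.98, 9.93, 9.78 and 9.77 in control mice. Both lay lower on the high-fat diet at each time. Ndufa8 averaged 8.73, 9.15, 9.44, 8.97, 8.96 and 8.99 in high-fat mice, against 9.11, 9.27, 9.12, 9.27, 9.46 and 9.20 in control mice, so its high-fat mean was the higher at ZT8 alone.

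Of the 40 tested genes, 24 passed in at least 1 of the 11 comparisons and 16 in none. Ndufs7 and Ndufaf4 passed in the most, 5 each. Some of these calls were unsteady. Those of Ndufs7 at ZT16, Ndufs7 at ZT20 and Ndufaf4 at ZT0 were each lost in 4 of 5 alternative settings. With single mice left out they were lost, in that order, in 5, 6 and 19 of 47 fits. The 16 included the N module subunits Ndufa2, Ndufa6, Ndufa12, Ndufv1, Ndufv3 and Ndufs1, the membrane subunits Ndufa3, Ndufa11, Ndufb4 and Ndufb11, the acyl carrier Ndufab1 and the assembly factors Ndufaf2, Ndufaf3, Ndufaf6 and Ndufaf8. With Ndufa4l2, their average differences ran from -0.14 to 0.07.

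**Figure D3:**
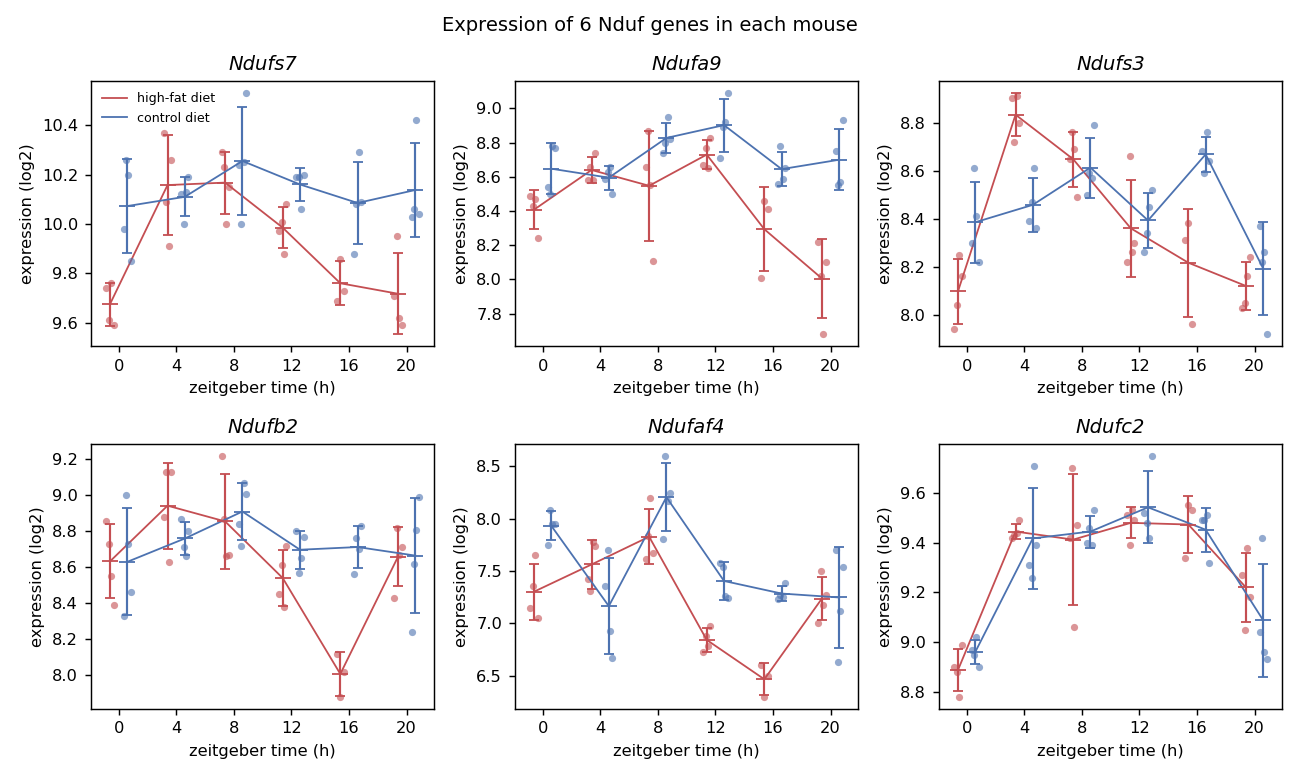
Each panel plots the log2 expression of 1 gene in each mouse against zeitgeber time, high-fat mice (red) left of control mice (blue), with group means joined by lines and SD bars. Ndufs7, Ndufa9, Ndufs3, Ndufb2 and Ndufaf4 separate by diet at ZT16 or ZT20, whereas Ndufc2 follows nearly the same course on both diets.

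On the high-fat diet many Nduf genes had a daily rhythm that peaked in the first 12 h after ZT0. Of 40 tested genes, 17 fitted a 24 h cosine at an adjusted p under 0.05 (42.5%), where 16.9% of all genes did. Of the 32 nuclear subunits of complex I among the 40, 14 did. The amplitude is the height of the fitted peak above the fitted mean. Its median was 0.17 (log2) for the 40 genes, against 0.12 for all genes tested. Of the 17, 16 peaked in the first 12 h of the day and 15 between 3 and 10 h. Among all genes rhythmic on the high-fat diet, 1039 of 1731 peaked in the first 12 h.

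Ndufs7 had the smallest p-value, with an amplitude of 0.27 ± 0.04 and a peak at 7.63 ± 0.637 h (adjusted p = 0.000124). Its group means ran 9.68, 10.16, 10.17, 9.98, 9.76 and 9.72 from ZT0 to ZT20 in high-fat mice, against 10.07, 10.11, 10.26, 10.16, 10.09 and 10.14 in control mice. The 2 courses lay close together at ZT4 and ZT8 and furthest apart at ZT20 and ZT0. Next in p came Ndufs3, with a peak at 6.77 ± 0.637 h (adjusted p = 0.000169). Ndufv2 had an amplitude of 0.23 ± 0.04 and a peak at 6.90 ± 0.665 h (adjusted p = 0.000282). Ndufa9 peaked at 7.91 ± 0.735 h with an amplitude of 0.29 ± 0.06 (adjusted p = 0.000736).

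The largest fitted amplitude was that of Ndufaf4, 0.52 ± 0.12 with a peak at 4.29 ± 0.825 h (adjusted p = 0.00505). Ndufb2 (0.34 ± 0.07) and Ndufs4, an N module subunit needed late in assembly (0.35 ± 0.09), peaked near the same hours, at 4.35 and 4.38 h. Others that passed were Ndufb8, Ndufa1, Ndufc2, Ndufa4, Ndufc1, Ndufb3, Ndufs6, Ndufb5, Ndufs8 and Ndufs5-ps. The latest peak of a protein-coding member was that of Ndufc2 at 11.1 ± 0.862 h. The Ndufs5-ps probe set peaked at 20.3 ± 1.19 h (adjusted p = 0.0472), apart from the rest. Its second probe set had an amplitude of 0.05 ± 0.06 and did not pass, and signal of Ndufs5-ps cannot be told apart from that of its parent gene Ndufs5 by name alone.

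The count of high-fat rhythms depended on ZT16. Without the ZT16 mice 8 of the 17 passed, and with collection day as a random block 9 did. Over all genes 1731 passed, with 1062 without the ZT16 mice and 580 with the day block. Second probe sets also passed for Ndufs7 (0.24), Ndufb2 (0.30), Ndufb5 (0.21) and for 1 of 3 of Ndufs8 (0.22). They did not pass for Ndufv2 (0.18 ± 0.07) and Ndufc1 (0.10 ± 0.08), nor for Ndufb8, Ndufaf4 and Ndufs4, whose other probe sets lay below the filter.

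On the control diet 4 of 40 genes (10%) were rhythmic, where 10.5% of all genes were, so the share was that of the background. All 4 belonged to the membrane arm and were rhythmic on the high-fat diet as well. Ndufc2 peaked at 11.1 h in high-fat mice and at 10.7 ± 0.71 h in control mice, with an amplitude of 0.24 ± 0.05 in high-fat mice and 0.28 ± 0.05 in control mice (adjusted p = 0.000894 in control mice). At ZT0 it had 8.90, 8.88, 8.78 and 8.99 in high-fat mice, against 8.97, 8.95, 9.02 and 8.90 in control mice, and these were the lowest times of both diets. At ZT12 its means were 9.48 in high-fat mice and 9.54 in control mice.

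Ndufc1, the other C subunit, had amplitudes of 0.28 ± 0.07 on the high-fat diet and 0.25 ± 0.06 on the control diet (adjusted p = 0.0214 on the control diet). Ndufa1 had 0.26 ± 0.06 on the high-fat diet and 0.19 ± 0.05 on the control diet (adjusted p = 0.0394 on the control diet). Ndufb8 had 0.18 ± 0.03 on the high-fat diet and 0.12 ± 0.03 on the control diet (adjusted p = 0.044 on the control diet). The control count of 4 was unsteady. It was 2 without the ZT0, ZT8 or ZT20 mice and 7 without the ZT12 mice. It was also 2 without any 1 of 7 control mice (ZT4 replicate 1, ZT8 replicates 1 and 4, ZT16 replicates 3 and 4, and ZT20 replicates 1 and 3), and 1 with collection day as a random block. Over all genes 1081 passed, with 1284 without ZT0, 606 without ZT8, 825 without ZT20, 1565 without ZT12 and 289 with the day block.

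**Figure D4:**
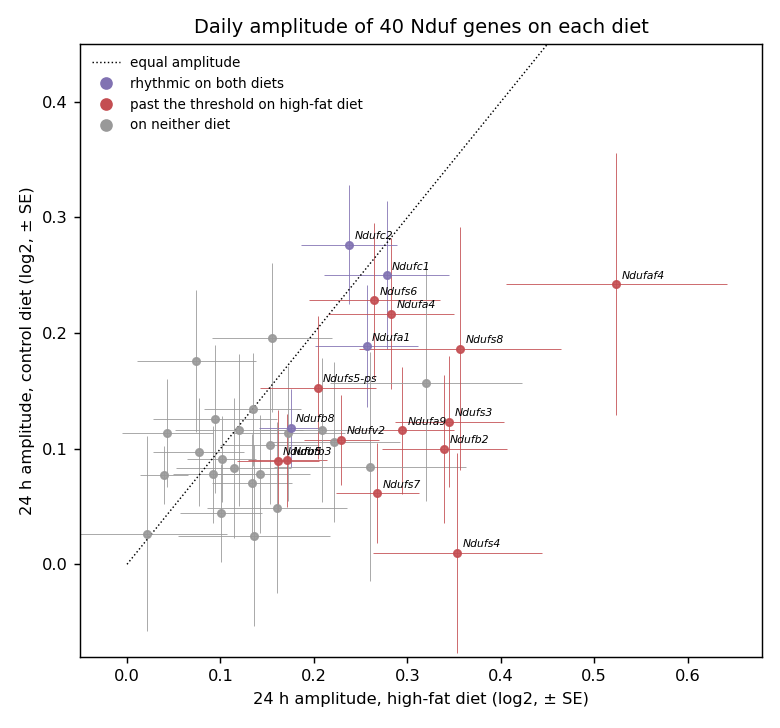
Each point is 1 of the 40 tested Nduf genes, placed by its fitted 24 h amplitude on the high-fat diet (horizontal) and on the control diet (vertical), both in log2 with SE bars, with the dotted line at equal amplitudes and colours for genes rhythmic on both diets (purple), on the high-fat diet (red) or on neither (grey). Of the 40 genes, 32 lie on the high-fat side of the line (the share of all genes there was not counted). The 4 rhythmic on both diets are Ndufa1, Ndufb8, Ndufc1 and Ndufc2.

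The fitted amplitude was larger on the high-fat diet in 32 of 40 genes, and the median was 0.17 on the high-fat diet and 0.11 on the control diet. A difference in rhythm between the diets passed for 1 gene, Ndufs5-ps (adjusted p = 0.0412), where 2.11% of all genes passed. Ndufs3 (adjusted p = 0.0726), Ndufa5 (0.0791) and Ndufs7 (0.0934) came next, and 11 of the 40 genes (27.5%) had an unadjusted p under 0.05, where 18.9% of all genes did. Passing on the high-fat diet and not on the control diet therefore does not show that a gene's rhythm differed. The count of 1 was 0 without any 1 of 22 mice and 2 without any 1 of 4. The 22 were high-fat mice at ZT0 (replicates 1 and 3), ZT8 (2 and 3), ZT12 (1), ZT16 (1 and 3) and ZT20 (1, 2 and 3), and control mice at ZT0 (1 and 3), ZT4 (1, 2 and 3), ZT8 (1 and 3), ZT12 (1, 2 and 4) and ZT16 (1 and 4). The 4 were high-fat mice at ZT8 (replicate 4) and ZT12 (2 and 4) and a control mouse at ZT0 (2). The count was 0 without the ZT4, ZT12 or ZT16 mice, 2 without ZT8, 3 without ZT0 and 5 without ZT20. Over all genes 216 passed, with 305 without ZT4, 300 without ZT12 and 15 without ZT16. It was 132 genes without ZT8, 361 without ZT0 and 516 without ZT20.

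The mean over the 40 tested genes gives a view of the whole set in each mouse, described without a test. It was 8.81 ± 0.069, 9.05 ± 0.101, 9.07 ± 0.134, 8.88 ± 0.034, 8.75 ± 0.054 and 8.86 ± 0.036 from ZT0 to ZT20 in high-fat mice (SD, n = 4, and 3 at ZT16). In control mice it was 8.96 ± 0.08, 9.07 ± 0.07, 9.10 ± 0.083, 9.02 ± 0.072, 9.02 ± 0.102 and 8.94 ± 0.066 (SD, n = 4). The diets were closest at ZT4 and ZT8 and furthest apart at ZT16, where the highest high-fat mouse (8.81) lay below the lowest control mouse (8.88). On the high-fat diet the highest group mean fell at ZT4 in 13 genes and at ZT8 in 17, against 21.3% and 14.6% of all genes. The lowest fell at ZT16 in 17 and at ZT0 in 14, against 26.6% and 21.9% of all genes. On the control diet the lowest fell at ZT16 in 2 genes and at ZT0 in 13, against 18% and 17.6% of all genes.

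**Figure D5:**
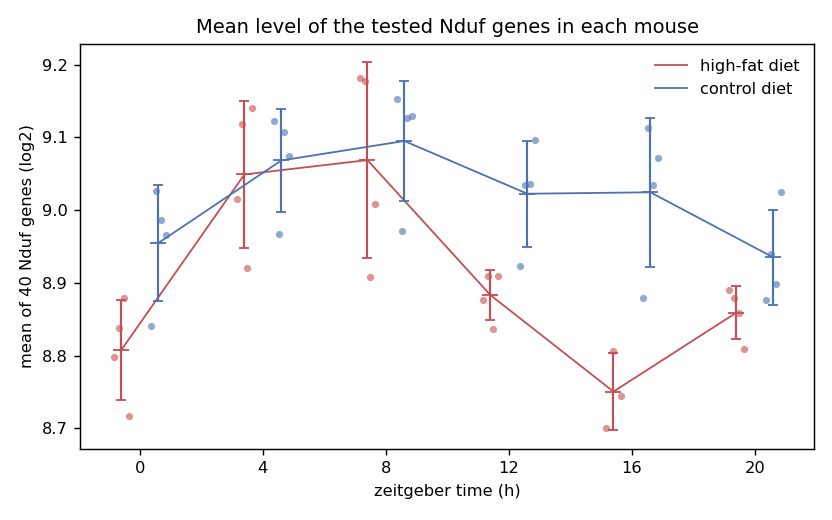
Points are the mean of the 40 tested Nduf genes (log2) in each mouse against zeitgeber time, high-fat mice (red) left of control mice (blue), with group means joined by lines and SD bars. At ZT16 the 3 high-fat mice lie between 8.70 and 8.81 and the 4 control mice between 8.88 and 9.11.

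Other genes of mitochondrial energy metabolism were counted beside complex I from lists chosen with earlier results of these data known. On average over the 6 times 6 of 15 ATP synthase genes fell (median -0.121), among them Atp5g1 (-0.28). In complex IV 2 of 10 fell and in complex III 0 of 8, with medians of -0.070 and -0.091. In complex II 1 of 7 rose, the assembly factor Sdhaf2 (0.26 ± 0.05, adjusted p = 0.00178), and 1 fell, the assembly factor Sdhaf1 (-0.30 ± 0.08, adjusted p = 0.00717). Of 11 further complex I assembly factors without the Nduf name 0 passed, with a median of -0.093. Of 14 genes of the citric acid cycle and pyruvate dehydrogenase 2 fell.

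At ZT16, 7 of 15 ATP synthase genes fell, 5 of 10 of complex IV, 2 of 8 of complex III and 2 of 14 of the citric acid cycle and pyruvate dehydrogenase, where 7.13% of all genes fell. In complex II 0 of 7 fell and 1 rose (Sdhaf2, 0.48 ± 0.14, adjusted p = 0.0212), and of the 11 further complex I assembly factors 0 passed, with a median of -0.001. Of 11 regulators of mitochondrial biogenesis 3 fell at ZT16. Ppargc1b, a coactivator of respiratory genes, fell by 1.04 ± 0.24 on the log2 scale (adjusted p = 0.00306), Esrra, the nuclear receptor it acts on, by 0.50 ± 0.12 (adjusted p = 0.00332), and Pprc1, a related coactivator, by 0.56 ± 0.16 (adjusted p = 0.0187). On the high-fat diet 4 of 8 complex III genes, 5 of 10 complex IV genes and 6 of 15 ATP synthase genes were rhythmic, each with a peak in the first 12 h. So were 6 of 14 genes of the citric acid cycle and pyruvate dehydrogenase, 2 of the 11 further assembly factors and 2 of the 11 regulators. In complex II 2 of 7 were rhythmic, 1 with such a peak. Of all genes 16.9% were rhythmic on the high-fat diet, and 1039 of these 1731 had such a peak.

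Satellite cell identity and other cell types were read from marker lists. Pax7 and Myf5, defining genes of satellite cells, stood at the 98.2 and 97.3 percentile of all genes on the array, and the mean of 11 such markers was 10.11 ± 0.099 in high-fat mice and 10.03 ± 0.058 in control mice (SD, n = 23 and 24). Of the 8 immune markers, Ptprc stood at the 2.3 percentile but Cd68 at 85.4 and Cd79a at 71.6, and 6 were below the filter. Of the fibroblast markers, Pdgfra stood at the 9.8 percentile but Col3a1 at 98.9 and Dpt at 99. On average 3 of 11 satellite cell markers, 2 of 4 tested fibro-adipogenic markers, 2 of 4 Schwann cell markers and 1 of 9 tested myofibre markers rose, where 4.7% of all genes rose. Of the 2 tested immune markers Cd68 fell on average (-0.30, adjusted p = 0.02) and at ZT0 (-0.86, adjusted p = 0.0184). Markers of pericytes and smooth muscle were abundant, with Acta2 at the 98.2 percentile. The mean of 5 of them was 9.09 ± 0.377 in high-fat mice and 9.33 ± 0.388 in control mice (SD, n = 23 and 24). Of the 5, 1 fell on average (Pdgfrb, -0.29, adjusted p = 0.0204), and all 5 had a negative average difference (median -0.277). At ZT20 all 5 were lower (median -0.862), at ZT16 4 (-0.499), at ZT0 4 (-0.173) and at ZT8 3 (-0.36). By contrast, at ZT12 all 5 had a positive difference (median 0.137) and at ZT4 3 of 5 did (median 0.093). The part of these lists in the average differences was not tested. One control mouse at ZT20 (replicate 2) had an endothelial marker mean of 8.25, against a mean of 6.27 over the control mice. It was also the highest of its group in the means of the immune (6.07), fibro-adipogenic (8.865), Schwann cell (7.573) and erythroid markers (9.372). Without it, as without some other mice, 1 Nduf gene passed at ZT20, and its part was not tested. The 3′ minus 5′ control signal of Actb was -0.42 ± 0.065 in high-fat mice and -0.38 ± 0.051 in control mice at ZT16 (SD), and its part was not tested either. Array medians lay between 5.86 and 5.94, the correlation between arrays between 0.942 and 0.988, and the number of arrays limits the precision.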

How the data were processed

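The authors deposited 1 log2 value for each probe set and array, summarised with RMA per the submitters' processing notes. Its version, its settings and a genome build were not given in the sources used here. Of 45141 probe sets, 28898 carried 1 gene symbol, 551 several and 15692 none; 28689 matched a RefSeq gene by identifier. Only probe sets with 1 symbol were used. Of the 42 Nduf genes 22 had more than 1 probe set. Genes with a mean under the 40th percentile were left out, which left 10258.

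Tests used R 4.3.3 and limma 3.58.1 (lmFit, eBayes with an intensity trend), two-sided, over all mice, with Benjamini-Hochberg adjustment over 10258 genes and a threshold of 0.05. The 12 group means gave the diet difference at each time, its average and the interaction (5 coefficients). Rhythms were a 24 h cosine and sine within each diet. The rhythm difference had time as a 6-level factor. The models were tested on simulated data. RMA gives the arrays a common distribution, which hides a shift shared by most genes, and it compresses differences of dim probe sets.

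The Nduf genes, the lists and the tests were chosen with earlier results of these data known. Values are given chiefly for the core subunits and for the members of smallest p in each comparison (6 for the average, 4 per rhythm, otherwise 3). Up to 3 genes of other lists are named. Each array is a separate mouse per the labels. Alternatives were cyclic loess, no filter, the mean of probe sets, array weights, a replicate block, day as a random block, and leaving out times and single mice.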

Additional observations from a re-analysis of the deposited data

Results flagged for a closer look

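The diet difference changed over the 6 times, by the interaction test, in Ndufs3 (adjusted p = 0.00465), Ndufaf4 (0.0125), Ndufs5-ps (0.0202), Ndufa9 (0.0369) and Ndufb2 (0.0388). The fitted rhythm of Ndufs5-ps differed between the diets (adjusted p = 0.0412).

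Single mice stood apart from the other 3 of their group in 13 of 264 groups of 4 that were examined, for 23 genes and the mean of the 40 genes, and chance alone flags about 1 in 20 groups. Among high-fat mice, Ndufa1 was 9.94 in 1 mouse at ZT8 and 10.26 to 10.27 in the others, and Ndufa11 was 9.24 at ZT4 against 9.43 to 9.44. Ndufs5-ps was 7.78 in the same ZT4 mouse, against 8.33 to 8.37. Ndufaf3 was 5.42 in 1 high-fat mouse at ZT0, where the others were at 5.59. Ndufb5 was 9.48 in 1 high-fat mouse at ZT8 (others 9.07 to 9.14), and Ndufb8 was 9.83 in 1 at ZT12 (others 9.68 to 9.69). Among control mice, Ndufaf3 was 5.55 in 1 mouse at ZT8 (others 6.30 to 6.37). Ndufs5-ps was 8.15 in another ZT8 control mouse (others 8.71 to 8.81), and in that mouse the mean of the 40 genes was 8.97 (others 9.13 to 9.15). Ndufb9 was 9.45 (others 9.56 to 9.57) and Ndufs7 was 10.06 (others 10.19 to 10.20) in 2 control mice at ZT12. Ndufc2 was 9.32 in 1 control mouse at ZT16 (others 9.49 to 9.51), and Ndufs7 was 10.42 in 1 at ZT20 (others 10.03 to 10.06).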

How the results depend on the processing

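Counts of Nduf genes past the threshold moved by over 1.5 times as follows, and the cause was not tested. The average diet effect gave 8 in place of 14 without ZT0 and 7 without ZT16, where fewer mice were fitted. Over all genes it gave 730 and 584 in place of 1180. With array weights ZT8 gave 1 in place of 0, ZT16 gave 17 in place of 11, the interaction 9 in place of 5, the rhythm on control diet 7 in place of 4 and the rhythm difference between diets 4 in place of 1. Over all genes these counts went, in the same order, from 183 to 775, 1360 to 2678, 1276 to 2199, 1081 to 1570 and 216 to 431. With the replicate block ZT16 gave 5, ZT20 gave 1 in place of 2, the interaction 1 and the rhythm difference 0. Over all genes that block gave 786 at ZT16, 58 in place of 84 at ZT20, 641 for the interaction and 105 for the rhythm difference. Same-numbered mice of the 2 diets did not deviate together (correlations of -0.193 to 0.114 in 23 pairs, 1 of them over 0.1), so the numbers do not pair the mice. Cyclic loess, no filter and the mean of probe sets each gave 1 at ZT20. No filter gave 2 for the rhythm on control diet and 0 for the rhythm difference, and the mean of probe sets also gave 0 for the rhythm difference. Day as a random block gave 9 in place of 17 for the rhythm on high-fat diet and 1 on control diet. Over all genes it gave 580 in place of 1731 and 289 in place of 1081. Without ZT4 or ZT16 the interaction gave 1. The rhythm on high-fat diet gave 8 without ZT16, and over all genes 1062 in place of 1731. The rhythm on control diet gave 2 without ZT0, ZT8 or ZT20 and 7 without ZT12. The rhythm difference gave 3 without ZT0, 0 without ZT4, ZT12 or ZT16, 2 without ZT8 and 5 without ZT20.

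Leaving out each mouse in turn gave 12 to 15 for the average diet effect, 0 to 3 at ZT0, 0 throughout at ZT4 and ZT8, 0 to 1 at ZT12, 5 to 12 at ZT16, 1 to 2 at ZT20, 3 to 8 for the interaction, 14 to 20 for the rhythm on high-fat diet, 2 to 6 on control diet and 0 to 2 for the rhythm difference. Signs turned in the average diet effect for Ndufs1 (-0.030 without ZT8 and -0.016 without ZT12), Ndufs3 (0.0028 without ZT16) and other probe sets of Ndufaf4 (0.074) and Ndufb8 (0.060), and at ZT16 for 1 other probe set of Ndufa7 (0.032). Among single genes, Ndufa5, Ndufa9, Ndufb7 and Ndufs7 kept their average call in all 11 alternatives other than single mice left out and other probe sets, whereas Ndufa10 lost it in 8 and Ndufa8 in 5.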
